A study of Mus musculus with 20 samples.

Results

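The mouse keratin gene clusters are 2 stretches of the genome in which the genes for keratins lie side by side. In the mm9 build, counted from 1, the type II keratin window is chr15:101190001-101890000, of 700 kb, and the type I keratin window, which also holds the genes for keratin-associated proteins, is chr11:99050001-100100000, of 1050 kb. Every deposited peak with at least 1 bp in a window was taken as a member, which gave 4149 of the 4480164 peaks in 10 lists: 1704 in the type II window and 2445 in the type I window. The windows were selected on earlier results of the same lists, so their coverage is described here and not tested.

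The lists come from chromatin immunoprecipitation with sequencing of primary mouse embryonic fibroblasts, taken from C57BL/6 embryos at E13.5, grown in 10% FBS and used at passage 4. Mutant cells, whose genotype is labelled SS and not spelled out, were set beside wild-type (WT) cells of the same strain and passage. pRb, the retinoblastoma protein, and the histone mark H3K27me3 were each assayed in arrested SS, arrested WT, proliferating SS and proliferating WT cells, and Ezh2 was assayed in SS and WT cells made quiescent by serum deprivation. Each of these 10 groups had 1 library, and how many embryos went into a culture is not given in the sources used here. For the arrested H3K27me3 libraries the labels name serum deprivation. For the arrested pRb libraries one field names confluence, while the treatment field of all samples names 0.1% FBS for 72 h. The pRb labels list 5 antibodies for each library. With 1 library per group no difference below could be set against the spread between replicates, and no test was made. The sequencing depth behind the lists is unknown, the 10 input libraries were not analysed here, and the fibroblast label was not checked against marker genes, since the lists were not assigned to genes.

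Keratins are the intermediate filament proteins of epithelial cells, and each filament is built from type I chains paired with type II chains. Keratin-associated proteins surround and cross-link the keratin filaments of hair. Fibroblasts are mesenchymal cells that build their intermediate filaments mainly from vimentin, and most keratin genes are silent in them. H3K27me3, the trimethylation of a lysine in the tail of histone H3, marks silent developmental genes and is placed by Polycomb repressive complex 2, of which Ezh2 is the catalytic subunit; pRb is best known for repressing E2F target genes.

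The gene content of the clusters was read from RefSeq on another build, GRCm38.p6, so no peak or step of mm9 was assigned to a gene. On chromosome 15 the order runs from Krt80 through 26 type II keratin genes to Krt8, followed by Krt18, a type I keratin that lies beside its partner Krt8. On chromosome 11 it runs from Krt222 to Krt42 and holds 27 type I keratin genes. The 23 genes there whose symbols begin with Krtap lie in 1 block between Krt40 and Krt33a, near the middle of the cluster. Of the 250 bases before the start site, RefSeq held 15 promoters of 15 type II genes, 21 of 20 type I genes, 21 of 21 Krtap genes and 1 of Krt18.

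Promoters of both clusters held few CG dinucleotides, which are dense in many Polycomb-marked promoters. The median was 3 CG in the type II promoters, with a range of 1 to 16, and 4 in the type I promoters, with a range of 1 to 8. The Krtap promoters had a median of 1, and 8 of the 21 had none. Over all 32851 mouse promoters of the same length in the table the median was 6, and 37.8% held 10 or more, against 1 of 15 type II, 0 of 21 type I and 0 of 21 Krtap promoters. The motif TATAAA, searched on both strands, stood in 5 type II promoters (33.3%), 12 type I promoters (57.1%) and 20 Krtap promoters (95.2%), against 12.4% of all promoters. A match is a description of the letters, not a binding site. The next 5 promoters show this range, and the capitals mark each CG. Krt7 and Krt18 encode keratins of simple epithelia, Krt5 and Krt14 the keratin pair of the basal layer of stratified epithelia, and Krtap3-2 a keratin-associated protein. All positions in these 5 lines are in GRCm38.p6 and cannot be compared with the mm9 positions used elsewhere.
Krt7, chr15:101412153-101412402, plus strand: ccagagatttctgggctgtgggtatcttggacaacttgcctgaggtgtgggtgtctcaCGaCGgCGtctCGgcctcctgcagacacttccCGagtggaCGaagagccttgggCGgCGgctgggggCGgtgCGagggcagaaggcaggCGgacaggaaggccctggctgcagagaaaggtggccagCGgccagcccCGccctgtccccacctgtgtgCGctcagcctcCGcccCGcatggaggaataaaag
Krt5, chr15:101712906-101713155, minus strand: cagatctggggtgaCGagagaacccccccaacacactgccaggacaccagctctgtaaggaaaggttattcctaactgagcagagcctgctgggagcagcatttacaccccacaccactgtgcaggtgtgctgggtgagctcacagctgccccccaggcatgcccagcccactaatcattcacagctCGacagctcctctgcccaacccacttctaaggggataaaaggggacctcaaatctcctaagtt
Krt18, chr15:102027966-102028215, plus strand: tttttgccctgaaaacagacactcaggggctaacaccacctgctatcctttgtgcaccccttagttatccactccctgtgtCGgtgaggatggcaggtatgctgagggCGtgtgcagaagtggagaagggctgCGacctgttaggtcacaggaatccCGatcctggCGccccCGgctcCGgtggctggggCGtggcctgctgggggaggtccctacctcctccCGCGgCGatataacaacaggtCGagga
Krt14, chr11:100206031-100206280, minus strand: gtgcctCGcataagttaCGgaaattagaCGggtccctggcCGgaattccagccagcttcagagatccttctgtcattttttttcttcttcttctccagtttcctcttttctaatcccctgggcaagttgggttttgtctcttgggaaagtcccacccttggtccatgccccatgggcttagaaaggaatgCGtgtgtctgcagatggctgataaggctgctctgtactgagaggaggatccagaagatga
Krtap3-2, chr11:99556854-99557103, minus strand: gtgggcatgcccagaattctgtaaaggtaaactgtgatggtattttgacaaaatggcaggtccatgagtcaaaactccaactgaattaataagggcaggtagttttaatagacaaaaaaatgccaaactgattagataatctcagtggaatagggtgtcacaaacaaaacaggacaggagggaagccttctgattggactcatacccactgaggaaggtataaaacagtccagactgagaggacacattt
Among the RefSeq promoters read here, that of Krt7 had the most CG in either cluster, 16, and that of Krt18 had 12. Krt5 had 2, Krt14 had 5 and Krtap3-2 had none. A GC share of 66% in the Krt7 promoter stood against 40.8% in that of Krtap3-2.

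H3K27me3 peaks covered far more of the keratin windows than of the autosomes, and the type II window more than the type I window. In the type II window they covered 36.6% in arrested SS, 18.4% in arrested WT, 63.9% in proliferating SS and 63.6% in proliferating WT cells. In the type I window the shares were 14.0%, 12.0%, 34.7% and 28.2% in the same order of libraries. Over all autosomes the same lists covered 6.45%, 7.47%, 11.5% and 9.51%. The type II window was therefore covered 5.67, 2.46, 5.57 and 6.69 times as much as the autosomes in arrested SS, arrested WT, proliferating SS and proliferating WT cells. For the type I window these ratios were 2.17, 1.60, 3.02 and 2.97. The arrested WT list stood lowest in both windows.

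Within each library the type II window exceeded the type I window by 22.6 percentage points of H3K27me3 coverage in arrested SS, 6.45 in arrested WT, 29.2 in proliferating SS and 35.4 in proliferating WT cells. Both windows of a library were read from the same list. The type II window was covered more in 6 of 10 libraries: the 4 H3K27me3 libraries, arrested WT pRb and WT Ezh2. With peaks of at least 500 bp the count was 4, with the higher-scoring 50% of each list 7 and with gaps of up to 1 kb bridged 8, and the 4 H3K27me3 libraries were among them each time. The differences for pRb and Ezh2 were small, from -0.298 points in SS Ezh2 to 0.982 points in arrested WT pRb.

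**Figure D1:**
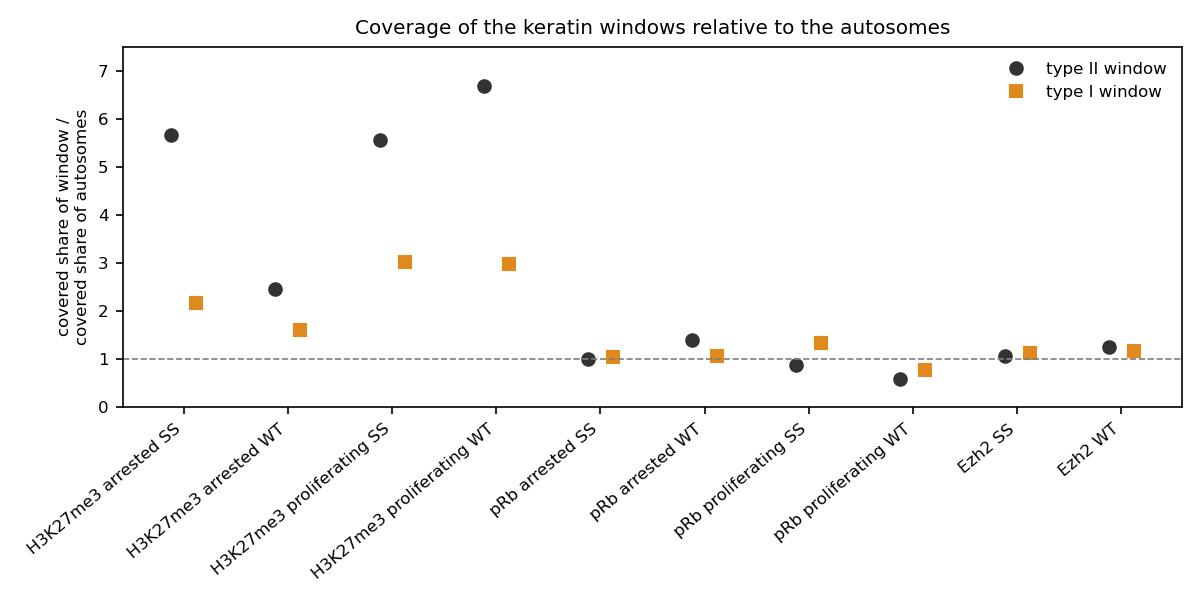
Covered share of each keratin window divided by the covered share of the autosomes, for the 10 libraries; circles are the type II window, squares the type I window, and the dashed line marks equality with the autosomes. H3K27me3 stands at 2.46 to 6.69 in the type II window and 1.60 to 3.02 in the type I window, while pRb and Ezh2 lie between 0.585 and 1.38.

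In steps of 20 kb, of which the type II window holds 35 and the type I window 52 with a remainder of 10 kb, H3K27me3 was spread over nearly the whole type II window. The median step there was covered to 38.2% in arrested SS, 17.6% in arrested WT, 68.9% in proliferating SS and 60.9% in proliferating WT cells. The medians of the type I window were 12.1%, 11.2%, 27.9% and 22.3% in that order. Over the 119807 autosomal steps that held a peak in any list the medians were 1.36%, 5.61%, 0.775% and 0.00%. A typical step of the genome therefore held little or no H3K27me3 peak sequence in the proliferating lists. No type II step was without H3K27me3 in any of the 4 lists, whereas the type I window had 5 empty steps in arrested SS, 0 in arrested WT, 2 in proliferating SS and 3 in proliferating WT cells.

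Steps covered to at least 50% numbered 10 of 35 in arrested SS, 0 in arrested WT, 25 in proliferating SS and 23 in proliferating WT cells in the type II window. Those of the type I window numbered 0, 0, 12 and 9 of 52. Among all autosomal steps such coverage was reached by 2.47%, 0.248%, 8.41% and 6.82%. Against the most covered 5% of autosomal steps in each list, the type II window placed 19, 10, 19 and 18 of its 35 steps and the type I window 5, 5, 8 and 6 of its 52. In the top 1% there were 2, 1, 4 and 7 type II steps and no type I step in any of the 4 lists.

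Proliferating cells had 2 long runs of dense steps in the type II window, parted by a mostly sparser stretch. In proliferating SS cells, neighbouring steps covered to at least 50% formed chr15:101230001-101410000, of 180 kb with a mean coverage of 73.1%, and chr15:101510001-101790000, of 280 kb with 81.1%. In proliferating WT cells the runs were chr15:101250001-101410000, of 160 kb with 75.1%, and chr15:101510001-101770000, of 260 kb with 85.1%. The 2 genotypes therefore placed the edges of these long runs within 1 step of each other. Between the long runs lay a shorter one, chr15:101450001-101470000 in proliferating SS cells, of 20 kb with 78.6%. In proliferating WT cells it was chr15:101450001-101490000, of 40 kb with 62.7%. In arrested SS cells the longest such run was chr15:101290001-101350000, of 60 kb with 56.8%, and arrested WT cells had none.

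Divided into 5 equal parts, the type II window was densest in the fourth, chr15:101610001-101750000, in all 4 H3K27me3 lists. That part was covered to 53.9% in arrested SS, 21.7% in arrested WT, 92.8% in proliferating SS and 93.1% in proliferating WT cells. The last part, chr15:101750001-101890000, was the least covered in all 4 lists, at 26.1%, 13.8%, 47.6% and 41.9%.

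The type I window had another profile, denser at both ends than between them. Its first part, chr11:99050001-99260000, was covered to 20.6% in arrested SS, 15.2% in arrested WT, 50.3% in proliferating SS and 48.3% in proliferating WT cells, and its last, chr11:99890001-100100000, to 23.2%, 13.7%, 45.0% and 33.8%. The middle part, chr11:99470001-99680000, was covered to 5.69%, 10.9%, 23.9% and 17.8%. It was not the least covered part in arrested WT cells, where the second part had 9.75%. Nor was it in proliferating SS cells, where the fourth part had 22.6%. Within the middle part 1 step stood out, chr11:99650001-99670000. That step was covered to 22.9% in arrested SS, 27.8% in arrested WT, 90.7% in proliferating SS and 81.1% in proliferating WT cells. The longest dense run of the type I window was chr11:99110001-99170000, of 60 kb, with a mean of 76.6% in proliferating SS and 70.0% in proliferating WT cells. The Krtap block is central in the RefSeq gene order, and whether it is the sparse stretch was not tested, because the builds differ.

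**Figure D2:**
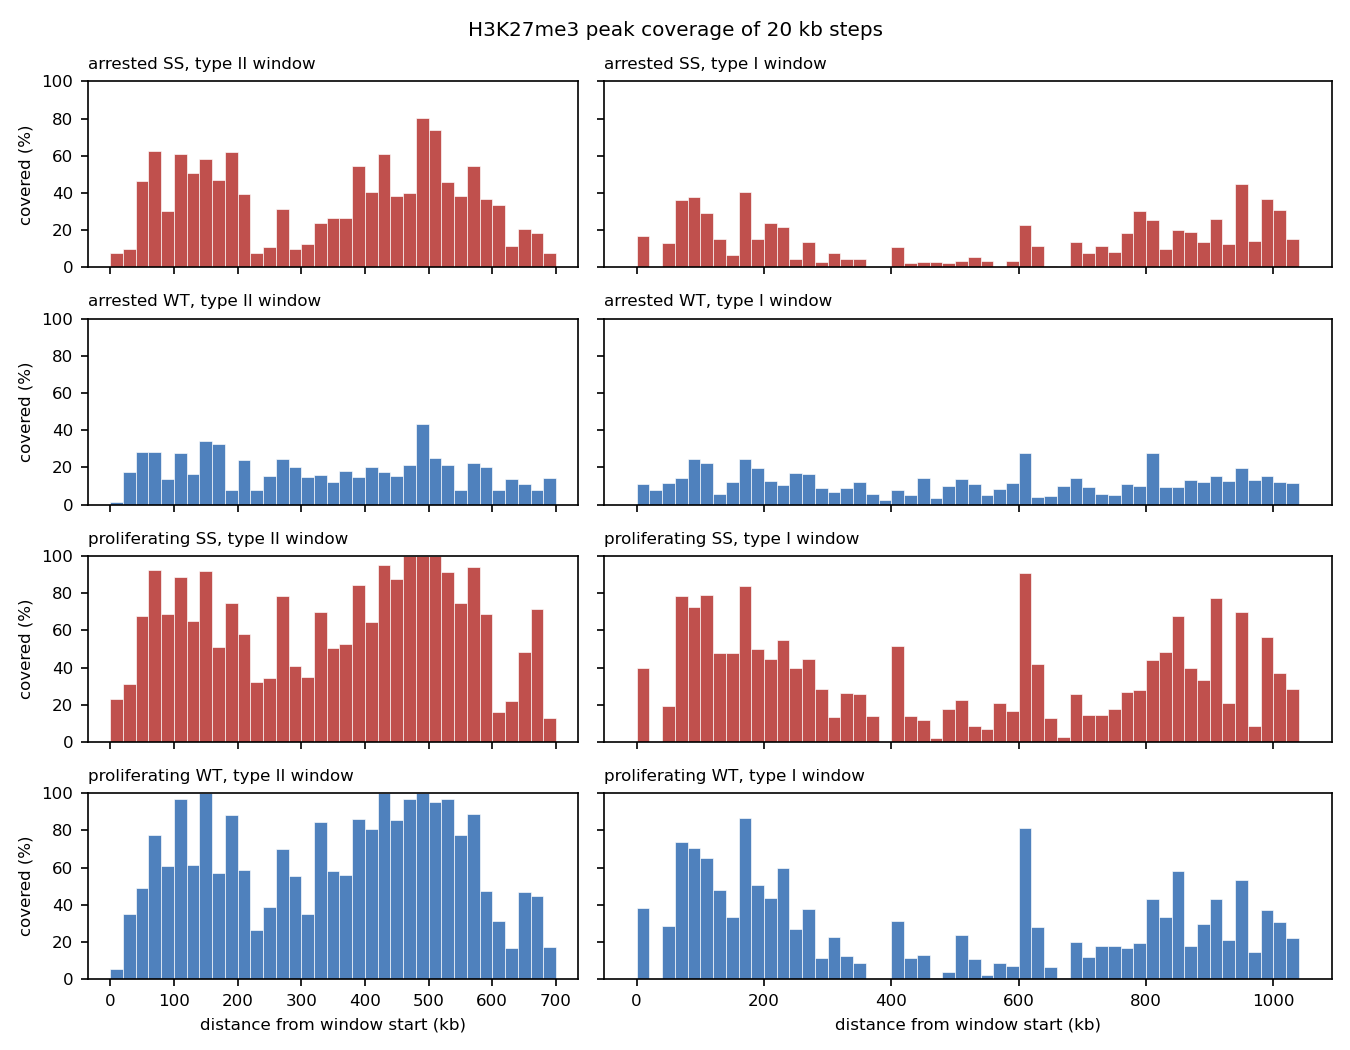
H3K27me3 peak coverage in percent of each 20 kb step against the distance from the start of the window in kb, with the type II window on the left and the type I window on the right; rows are arrested SS, arrested WT, proliferating SS and proliferating WT cells, SS in red and WT in blue. In proliferating cells the type II steps reach 100%, while the type I window is dense near both ends, with 1 isolated step of 90.7% in SS and 81.1% in WT cells between them.

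The edges of the 2 windows differed. In the 200 kb before and after the type II window, H3K27me3 coverage was 2.24% and 2.24% in arrested SS, 6.38% and 6.46% in arrested WT, 6.83% and 4.87% in proliferating SS, and 4.68% and 4.48% in proliferating WT cells. None of those flanking steps reached 50%, so the dense stretch lies inside the window. Before the type I window the 200 kb were covered to 18.4% in arrested SS, 13.8% in arrested WT, 50.2% in proliferating SS and 43.6% in proliferating WT cells, more than the window itself in each list. After it the shares were 11.1%, 10.3%, 27.5% and 21.1%. The type I window was thus not set apart from its neighbourhood on the low side, and the windows carry no coverage threshold.

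The coverage came from peaks of different lengths in the different lists. Peaks of 10 kb or more made up 34.0 percentage points of the type II coverage in proliferating SS and 36.7 in proliferating WT cells, with 11 and 14 such peaks. Arrested SS cells had 1 such peak, for 2.33 points, and arrested WT cells had 0. The type I window had 0 such peaks in arrested SS, 0 in arrested WT, 4 in proliferating SS and 3 in proliferating WT cells, for 5.48 and 3.03 points in the 2 proliferating lists. Peaks of 1 to 10 kb gave 26.7, 5.43, 26.7 and 23.4 points of the type II window in arrested SS, arrested WT, proliferating SS and proliferating WT cells, and peaks under 1 kb gave 7.57, 13.0, 3.28 and 3.52 points. In arrested WT cells most of the covered sequence of both windows lay in peaks under 1 kb, which gave 9.30 of 12.0 points in the type I window.

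Median peak lengths in the type II window were 769.5 bp in arrested SS, 164 bp in arrested WT, 1338 bp in proliferating SS and 1377.5 bp in proliferating WT cells. The medians of the whole lists were 439, 138, 702 and 723 bp. The type I medians were 572, 144.5, 866 and 800 bp, between the type II values and those of the lists. The short peaks of arrested WT cells in the windows thus go with a list that is short throughout, and the part of list construction in the difference between arrested SS and arrested WT lists was not tested.

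**Figure D3:**
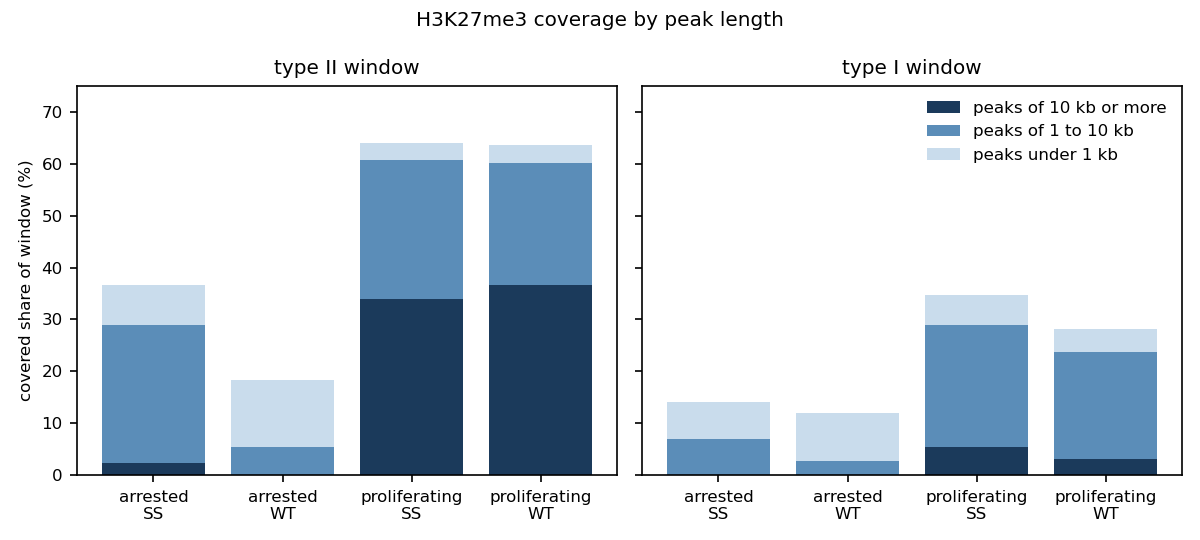
Share of each window covered by H3K27me3 peaks of 10 kb or more, of 1 to 10 kb and under 1 kb, stacked, in percent of the window, for arrested SS, arrested WT, proliferating SS and proliferating WT cells. Peaks of 10 kb or more reach 34.0 and 36.7 points of the type II window in proliferating SS and WT cells and 5.48 and 3.03 points of the type I window.

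The longest peak of either window was chr15:101639982-101726792 in proliferating SS cells, 86.8 kb long and the 20th longest of 168793 peaks in its list. Proliferating WT cells split that stretch into several peaks, the longest of which was chr15:101663634-101709051, of 45.4 kb. In arrested SS cells the longest was chr15:101682105-101698392, of 16.3 kb, which lies inside both of those. The longest type II peak of arrested WT cells lay elsewhere, at chr15:101354491-101357592, with 3.10 kb. The longest type I peaks were chr11:99047488-99052650 in arrested SS, with 5.16 kb, chr11:99853287-99857227 in arrested WT, with 3.94 kb, chr11:99653831-99674256 in proliferating SS, with 20.4 kb, and chr11:99226386-99239933 in proliferating WT cells, with 13548 bp.

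By the authors' -log10 q-value, the score used here, the leading H3K27me3 peaks of the proliferating lists fell at the same places in both genotypes. In the type II window they were chr15:101253572-101274776 in SS cells, with a score of 11.7 and a fold enrichment of 4.81, and chr15:101261228-101281064 in WT cells, with 8.38 and 4.36. Peaks of all 9 other lists overlapped each of them. Those of the type I window were chr11:99853801-99859828 in SS cells, with 10.2 and 4.65, and chr11:99852543-99859322 in WT cells, with 5.56 and 3.76. Fold enrichment in the windows was close to that of the lists: its median in the type II window was 3.38 in arrested SS, 5.87 in arrested WT, 2.82 in proliferating SS and 2.76 in proliferating WT cells, beside 3.24, 5.85, 2.62 and 2.59 over the whole lists. In the type II window the -log10 q-value reached its list's median in 64.3% of arrested SS and 50.7% of arrested WT peaks. It did so in 68.4% of proliferating SS and 72.3% of proliferating WT peaks. The type I shares were 50.7%, 49.2%, 51.9% and 49.7% in the same order of libraries.

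In arrested cells, H3K27me3 covered the type II window more in SS than in WT cells, 36.6% against 18.4%, a ratio of 1.99, while over the autosomes the arrested SS list covered 0.863 times as much as the WT list. Coverage was higher in SS cells in 29 of 35 type II steps and lower in 6, whereas among all autosomal steps it was higher in 24.1% and lower in 75.2%. By 10 points or more it was higher in 23 steps and lower in 1, against 7.84% and 4.9% of all steps. Dividing each list by its autosomal coverage left the split at 29 and 6, against 27.5% higher and 71.8% lower among all autosomal steps on that scale. In the type I window the ratio was 1.17, with 27 steps higher and 25 lower. By 10 points or more 11 were higher and 3 lower. When gaps of up to 1 kb between peaks were bridged, the higher count was 16 of 52 (30.8%). No share of all autosomal steps was computed with gaps bridged. The type I ratio then turned to 0.838, with 17.0% covered in SS against 20.3% in WT cells. It was 1.76 with peaks of at least 500 bp, so no direction is given for the whole type I window. Within the merged peaks of both proliferating H3K27me3 lists, arrested SS peaks covered 34.4% over the autosomes, against 21.0% for arrested WT peaks. Outside them the autosomal shares were 2.02% for SS and 5.33% for WT peaks. The type II window had 45.6% against 20.9% inside and 11.8% against 11.6% outside. The type I window had 27.2% against 16.7% and 4.65% against 8.58%. More arrested SS coverage of such sequence is therefore not particular to the windows.

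The type II steps with the largest gain in arrested SS cells were chr15:101370001-101390000, with 62.1% in SS against 7.65% in WT cells, chr15:101690001-101710000, with 73.6% against 25.2%, and chr15:101610001-101630000, with 61.0% against 17.7%. The only type II step lower by 10 points was chr15:101470001-101490000, with 9.83% in SS against 20.2% in WT cells. That step lies between the long dense runs and was covered to 40.8% in proliferating SS and 55.4% in proliferating WT cells. The largest type I gain was at chr11:99990001-100010000, with 44.7% in SS against 19.8% in WT cells, and the largest loss at chr11:99290001-99310000, with 4.62% against 16.9%. Gains of 10 points lay towards both ends of the type I window, and steps in its sparse middle were mostly lower in SS cells. Coverage over steps ranked alike in the 2 genotypes, with a Spearman correlation of 0.597 over the 35 type II steps and 0.641 over the 52 type I steps, beside 0.591 over all autosomal steps; steps of a window share their 2 lists and are not independent.

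In proliferating cells the type II window was covered almost equally by H3K27me3 in the 2 genotypes, 63.9% in SS and 63.6% in WT cells, a ratio of 1.01, while the autosomal ratio was 1.21. Type II coverage was higher in SS cells in 15 of 35 steps, lower in 19 and equal in 1, against 39.2% higher and 14.2% lower among all autosomal steps. By 10 points or more it was higher in 5 steps and lower in 5, against 8.86% and 1.07%. Divided by each list's autosomal coverage, 6 steps were higher in SS cells and 29 lower, against 31.1% and 22.8% of all autosomal steps on that scale. The type I window followed the list more closely, with a ratio of 1.23, 38 of 52 steps higher in SS cells, 12 lower and 2 equal, and 17 higher and 0 lower by 10 points or more. After division by the autosomal coverage 27 type I steps were higher and 23 lower.

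The largest type II gain in proliferating SS cells was at chr15:101850001-101870000, with 71.4% in SS against 44.6% in WT cells, and the largest loss at chr15:101590001-101610000, with 64.7% against 80.8%. The largest type I gain was at chr11:99950001-99970000, with 77.4% in SS against 43.0% in WT cells, and the largest loss at chr11:99350001-99370000, with 13.1% against 22.6%. The step profiles of the 2 proliferating lists ranked alike, with a Spearman correlation of 0.908 over the type II and 0.907 over the type I steps, beside 0.866 over all autosomal steps.

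**Figure D4:**
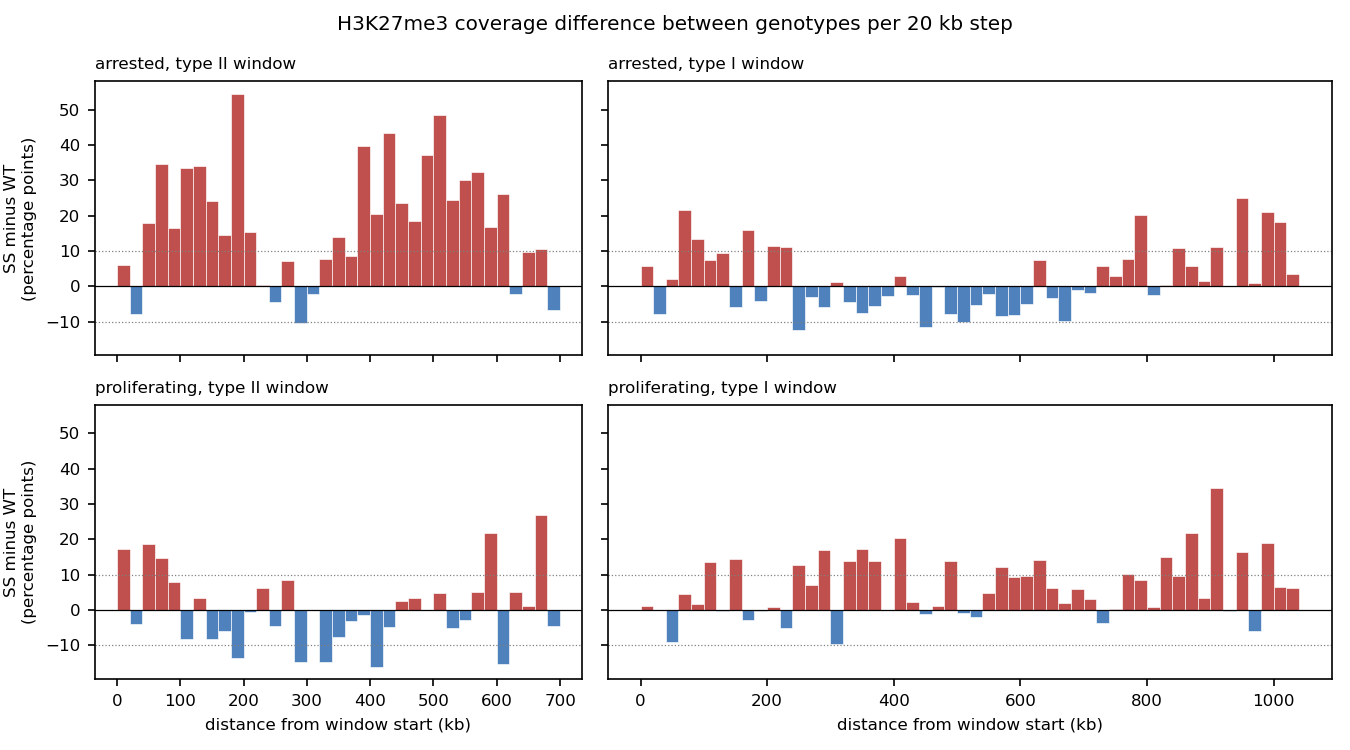
Difference in H3K27me3 coverage between SS and WT cells, in percentage points per 20 kb step, against the distance from the window start in kb; arrested cells above, proliferating cells below, type II window on the left, red where SS is higher and blue where WT is higher, with dotted lines at 10 points. In arrested cells 23 of 35 type II steps lie at or above 10 points and 1 at or below -10, while in proliferating cells 5 lie beyond each line.

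Arrested cells had less H3K27me3 coverage than proliferating cells in most keratin steps. In SS cells the type II window was covered to 36.6% when arrested against 63.9% when proliferating, with 1 step higher and 34 lower, against 28% and 42.4% of all autosomal steps. By 10 points or more 1 step was higher and 32 lower, against 0.348% and 20.4%. The ratio of 0.572 was close to the autosomal 0.562, and after division by the autosomal coverage 16 type II steps were higher in arrested cells and 19 lower, against 40.8% and 29.7% of all autosomal steps. The type I window had a ratio of 0.403, with 3 steps higher, 47 lower and 2 equal, and 0 higher and 35 lower by 10 points or more; after that division 13 were higher and 37 lower.

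In WT cells the type II window was covered to 18.4% when arrested against 63.6% when proliferating, a ratio of 0.289 beside the autosomal 0.786; it was 0.178 with the higher-scoring 50% of each list. All 35 type II steps were lower in arrested WT cells, 32 of them by 10 points or more. Among all autosomal steps 73.2% were higher and 25.9% lower, with 4.81% higher and 16.1% lower by 10 points or more. A step without a proliferating WT peak cannot be lower, and the median autosomal step had no coverage in that list. Within the merged peaks of both proliferating H3K27me3 lists, arrested WT peaks covered 21.0% over the autosomes, 20.9% in the type II and 16.7% in the type I window. Low arrested WT coverage of such sequence is therefore not particular to the windows. The type I window had a ratio of 0.423, which was 0.256 with peaks of at least 500 bp and 0.637 with gaps bridged, and had 11 steps higher and 41 lower, and 0 higher and 28 lower by 10 points or more. The 2 growth comparisons and the 2 genotype comparisons share their lists, so the low coverage of the arrested WT list enters both of the comparisons in which it stands.

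The type II step with the largest loss in arrested SS cells was chr15:101650001-101670000, with 39.8% when arrested against 100% when proliferating. The single type II step that was higher in arrested SS cells was chr15:101790001-101810000, with 33.7% against 16.1%, just beyond the second dense run. In WT cells the largest losses were at chr15:101610001-101630000, with 17.7% when arrested against 100% when proliferating, and chr15:101370001-101390000, with 7.65% against 88.2%; both steps are among the 3 with the largest SS gain in arrested cells. The largest type I loss was at chr11:99650001-99670000 in SS cells, with 22.9% when arrested against 90.7%, and at chr11:99210001-99230000 in WT cells, with 24.7% against 86.7%.

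H3K27me3 peaks of arrested cells mostly met a peak of proliferating cells in the type II window in both genotypes and in the type I window in SS cells, but not in the type I window in WT cells. In the type II window 90.3% of the 196 arrested SS peaks (95% Wilson interval 85.4 to 93.7) overlapped a proliferating SS peak by 1 bp or more, and 79.5% of the 302 arrested WT peaks (74.6 to 83.6) with a proliferating WT peak. For the type I window the shares were 78.0% of 205 (71.9 to 83.2) and 41.3% of 390 (36.5 to 46.2). Over the autosomes they were 51.4% for SS and 20.5% for WT cells. A window with more covered sequence gives more overlap, and the intervals count peaks, which are not independent.

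Between genotypes, 59.7% of the arrested SS peaks of the type II window (52.7 to 66.3) met an arrested WT peak and 54.3% of the WT peaks met an SS peak (48.7 to 59.8), while in the type I window these shares were 46.3% (39.6 to 53.2) and 25.9% (21.8 to 30.5). In proliferating cells they were 82.9% of SS peaks (75.1 to 88.7) and 83.9% of WT peaks (76.0 to 89.6) in the type II window, and 59.0% (52.3 to 65.5) and 77.5% (70.7 to 83.0) in the type I window. Autosomal shares were 38.3% and 15.9% in arrested cells and 50.2% and 68.9% in proliferating cells. The H3K27me3 peaks of both windows gave higher shares than the autosomes in each of these pairs; whether that exceeds what denser coverage alone gives was not tested. When each peak had to cover 50% of the other, 7.14% of arrested SS and 31.6% of proliferating SS peaks of the type II window were shared. No autosomal share was computed for that rule, so these shares are no result about the window.

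pRb peaks covered the keratin windows about as much as the genome. In the type II window they covered 5.42% in arrested SS, 4.25% in arrested WT, 0.534% in proliferating SS and 0.267% in proliferating WT cells, with 183, 156, 25 and 13 peaks. In the type I window the shares were 5.66%, 3.27%, 0.817% and 0.351%, with 281, 174, 62 and 24 peaks. The ratio to the autosomes ran from 0.585 for proliferating WT to 1.38 for arrested WT cells, both in the type II window. No pRb peak of either window was over 1 kb long.

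More pRb in arrested than in proliferating cells was seen in all 35 type II steps in SS cells and in all 35 in WT cells, against 98.1% higher and 1.51% lower of all autosomal steps in SS cells and 92.4% higher and 5.59% lower in WT cells. Of the 52 type I steps, 50 were higher and 2 lower in SS cells, and 49 were higher, 2 lower and 1 equal in WT cells. These shares are near those of the genome, so they are no result about the windows. Divided by the autosomal coverage, 22 type II steps were higher and 13 lower in arrested SS cells, and 27 higher and 8 lower in arrested WT cells; for the type I window the splits were 23 higher and 29 lower, and 34 higher and 17 lower. Of all autosomal steps on that scale, 56% were higher and 43.7% lower in arrested SS cells, and 57.8% higher and 40.3% lower in arrested WT cells.

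Between genotypes, arrested SS cells had more pRb coverage than arrested WT cells in 20 of 35 type II steps and less in 15, and more in 38 of 52 type I steps and less in 14, against 78.3% and 21.5% of all autosomal steps. Divided by the autosomal coverage, 14 type II steps were higher and 21 lower, and 24 type I steps were higher and 28 lower, against 51.3% and 48.5% of all autosomal steps. In proliferating cells 16 type II steps were higher in SS cells, 5 lower and 14 equal, and 31 type I steps were higher, 11 lower and 10 equal, against 44.5% higher and 31.9% lower among all autosomal steps; after division 25 type I steps were higher and 17 lower, against 39.3% and 37.3% of all autosomal steps. Where the pRb lists of the 2 genotypes had peaks, they seldom met: 16 of 183 arrested SS peaks of the type II window (8.74%, 5.45 to 13.7) and 32 of 281 in the type I window (11.4%, 8.18 to 15.6) overlapped an arrested WT peak, beside 7.25% over the autosomes. In proliferating cells 0 of 25 type II peaks, which allows a share of up to 13.3% by the Wilson interval, and 1 of 62 type I peaks of SS cells (1.61%, 0.285 to 8.59) overlapped a WT peak. The autosomal share was 1.25%, so these counts are near those of the genome and are no result about the windows. Step coverage by pRb did not rank alike in the 2 genotypes, with Spearman correlations from -0.118 to 0.223 over the steps of a window. Over all autosomal steps the correlations were 0.032 in arrested and 0.044 in proliferating cells, so this too is no result about the windows.

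The pRb peaks of highest score in the type II window were chr15:101238951-101239521 in arrested SS cells, with a score of 473 in the authors' unstated unit, and chr15:101357010-101357155 in arrested WT cells, with 448. The peak in SS cells overlapped H3K27me3 peaks of arrested SS, proliferating SS and proliferating WT cells. The peak in WT cells overlapped H3K27me3 peaks of arrested WT, proliferating SS and proliferating WT cells, and an arrested SS pRb peak. Merged proliferating H3K27me3 peaks take up 73.3% of the type II window, so such overlap is common there. The pRb peak of highest score in the type I window in arrested SS cells was chr11:99588338-99588489, with 566, which no peak of another list overlapped. In proliferating SS cells it was chr11:99455543-99455596, with 171, the 37th highest of 106472 peaks, and a peak of arrested SS pRb overlapped it.

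Ezh2 peaks in the keratin windows were many and short, as they were in the whole lists. They covered 5.21% of the type II window in SS and 4.00% in WT cells, with 354 and 246 peaks, and 5.51% of the type I window in SS and 3.70% in WT cells, with 531 and 395 peaks. The autosomal shares were 4.91% and 3.20%, so the windows were covered 1.06 and 1.25 times as much in the type II and 1.12 and 1.16 times as much in the type I cluster. Single type II steps ran from 1.53% to 10.2% in SS and from 0.5% to 8.56% in WT cells, and 1 of the 35 in SS and 5 in WT cells were among the most covered 5% of autosomal steps. In the 200 kb before and after the type II window Ezh2 covered 4.30% and 3.20% in SS and 1.93% and 1.91% in WT cells, and beside the type I window 3.69% and 3.80% in SS and 3.15% and 2.87% in WT cells. All of these flanks were below their window. No Ezh2 peak of either window was over 1 kb, and the median length was 51 bp in SS and 58.5 bp in WT cells in the type II window. Over the whole lists the medians were 51 bp in SS and 50 bp in WT cells, so the short lengths are a trait of the lists. No broad Ezh2 peak stood where H3K27me3 was dense, but lists of such short peaks leave little room for one.

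Ezh2 coverage was higher in SS cells in 22 of 35 type II steps and lower in 13, and higher in 42 of 52 type I steps and lower in 10, against 76.4% and 23.4% of all autosomal steps. After division by the autosomal coverage 12 type II steps were higher in SS cells and 23 lower, and 26 type I steps were higher and 26 lower, against 51.1% and 48.8% of all autosomal steps, so the higher counts in SS cells do not hold on both scales. Of the 354 SS peaks of the type II window 9.89% (7.20 to 13.4) overlapped a WT peak, as did 9.04% (6.89 to 11.8) of the 531 in the type I window, beside 8.15% over the autosomes.

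Within the type II window Ezh2 peaks, from serum-deprived cells, covered more of the sequence under H3K27me3 peaks of proliferating cells than of the rest. The merged peaks of the 2 proliferating H3K27me3 lists take up 73.3% of the type II window, 41.4% of the type I window and 13.7% of the autosomes. Inside them Ezh2 covered 5.82% in SS and 4.54% in WT cells in the type II window, and outside them 3.53% in SS and 2.52% in WT cells, ratios of 1.65 and 1.80. In the type I window the ratios were 1.09 and 1.08, and over the autosomes 1.21 and 1.22. The type II ratios depend on the list that marks the inside. With the arrested SS list the type II ratios were 1.22 in SS and 1.12 in WT cells. The type I ratio for SS cells was 0.808 with that list. No autosomal ratio was computed with the arrested SS list, and the arrested WT list was not used to mark the inside. For arrested pRb the ratios were 1.33 in SS and 0.963 in WT cells in the type II window, 0.999 and 1.22 in the type I window, and 1.13 and 1.22 over the autosomes.

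**Figure D5:**
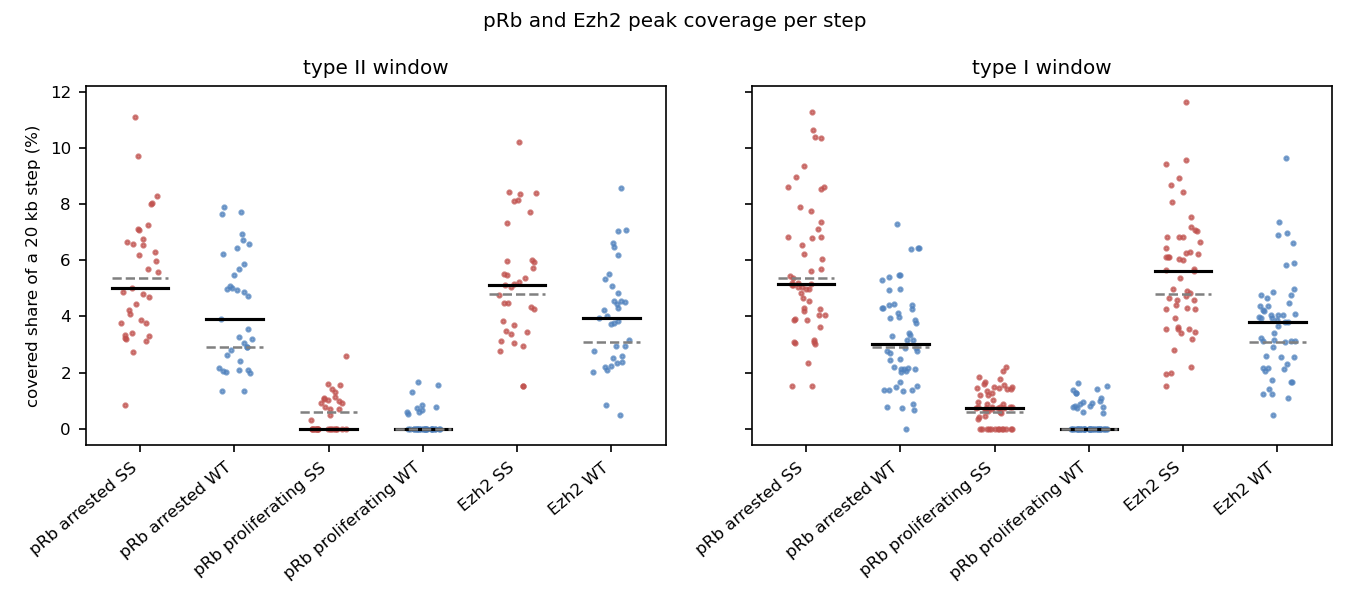
Peak coverage of single 20 kb steps in percent for pRb in arrested SS, arrested WT, proliferating SS and proliferating WT cells and for Ezh2 in SS and WT cells; each point is a step, the solid line is the median over the steps of the window and the dashed line the median over all autosomal steps. In the type II window the medians for Ezh2 are 5.12% in SS and 3.93% in WT cells, near the autosomal 4.80% and 3.08%, and steps stay below 12% throughout.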

How the data were processed

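Peak lists of 10 immunoprecipitated libraries were used, grouped by the sample titles. Bowtie2, MACS2, HOMER and bedtools were used on the mm9 build, per the submitters' processing notes. Not given in the sources used here are their versions, roles and settings, the control, and how reads that match several near-identical keratin genes were treated. Each peak of the 4 pRb lists was deposited with a score of unstated unit. In the other 6 lists the authors deposited a score, a fold enrichment (a ratio) and the -log10 of the p-value and of the q-value. The score used here for those 6 lists is the -log10 q-value. Scores were used only within a list. A list from more reads, or called with other settings, holds more or longer peaks, which moves every coverage value, and the depth per sample is unknown.

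The covered percent of a window or 20 kb step is the share of its bases in peaks of a list. Steps of each comparison were read beside 119807 autosomal steps. These are the steps with a peak in any of the 10 lists, and they are meant wherever the text says all autosomal steps. Steps empty in every list were left out. A difference of 10 percentage points was used as the size of a change. The text names, for each H3K27me3 comparison, steps among the 3 largest gains and losses, and, for each list, the longest and highest-scoring peaks and the runs of steps covered to at least 50%. The windows, lists and rules were chosen with earlier results of these data known. With 1 library per group no test was made. Wilson 95% intervals cover counting error over peaks only. Alternatives were peaks of at least 500 bp, the higher-scoring 50% of each list, gaps of up to 1 kb bridged, steps of 10 and 50 kb, division by the list's autosomal coverage and a reciprocal overlap of 50%. Another H3K27me3 list to mark the inside for Ezh2 was added after the data were seen. The coverage step was tested on simulated peaks. Promoter sequences are from RefSeq, GRCm38.p6. Computations ran in Python 3.11.15 with pandas 2.3.3, numpy 2.4.6 and scipy 1.17.1, and figures in matplotlib 3.10.9.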

Additional observations from a re-analysis of the deposited data

How the results depend on the processing

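With 1 library per group no value below has a replicate error, so a change with the processing cannot be set against one. No paired analysis was possible because each group has 1 library and no replicate numbers. The type II window was covered more than the type I window in the 4 H3K27me3 libraries under each alternative run, and in 4 to 8 of all 10 libraries. The share of type II steps with more H3K27me3 in arrested SS than in arrested WT cells, 82.9%, stayed between 77.1% and 91.4%. The cause of the changes listed here was not tested, except that few pRb and Ezh2 peaks reach 500 bp.

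The next values are percent of steps covered more. Shares of all autosomal steps were computed only with all peaks in 20 kb steps, as covered percent and after division by autosomal coverage. The other settings have none, so their values are no result about the windows. Divided by autosomal coverage, H3K27me3 gave 17.1% for proliferating SS over WT in the type II window, and 45.7% in the type II and 25.0% in the type I window for arrested over proliferating SS. It gave 5.71% in the type II window for arrested over proliferating WT, for which no share of all autosomal steps was computed on that scale. On the same scale pRb turned to 46.2% for arrested SS over WT and to 44.2% for arrested over proliferating SS in the type I window, and gave 62.9% for the second in the type II window; Ezh2 gave 34.3% in the type II and 50% in the type I window. With gaps bridged, H3K27me3 gave 30.8% for arrested SS over WT in the type I window, and 2.86% in the type II and 40.4% in the type I window for arrested over proliferating WT. Steps of 10 kb gave H3K27me3 7.14% for arrested over proliferating SS in the type II window and 5.71% in the type II and 35.2% in the type I window for WT, and pRb 28.6% for proliferating SS over WT in the type II window. Steps of 50 kb gave 0% in both windows for H3K27me3 in arrested over proliferating SS and 90.5% for pRb in proliferating SS over WT in the type I window. The higher-scoring 50% of each list gave H3K27me3 13.46% in SS and 36.5% in WT for arrested over proliferating in the type I window, and pRb 36.5% for proliferating SS over WT there. With peaks of at least 500 bp, H3K27me3 gave 9.62% for arrested over proliferating WT in the type I window. For pRb such peaks gave, in the type II and type I windows, 11.4% and 17.3% for arrested SS over WT, 0% and 0% for proliferating SS over WT, 11.4% and 17.3% for arrested over proliferating SS, and 0% and 1.92% for WT; for Ezh2 they gave 5.71% and 9.62%.

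The next values are percent of SS peaks that overlap a WT peak. Autosomal shares were computed only for an overlap of 1 bp in the full lists, so none stands beside these values. At a reciprocal overlap of 50%, H3K27me3 gave 7.14% and 8.78% in arrested and 31.6% and 23.8% in proliferating cells for the type II and type I windows, arrested pRb 2.19% and 3.91%, proliferating pRb 0% in the type I window and Ezh2 2.82% and 0.942%. The higher-scoring 50% of each list gave 40.5% and 24.0% for arrested H3K27me3, 4.71% and 4.52% for arrested pRb, 0% for proliferating pRb in the type I window and 5.98% and 6.59% for Ezh2. Peaks of at least 500 bp gave 41.3% and 30.7% for arrested H3K27me3, 0% and 0% for arrested pRb and 0% and 0% for Ezh2. Small counts of proliferating pRb peaks, 25 and 62 in SS cells, limit every value drawn from them.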
